A study of Mus musculus with 4 samples.

Results

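The Fc receptor genes of the mouse were followed in smooth muscle cells sorted from control lungs and from lungs with an induced inactivation of *Tet3*, which encodes a dioxygenase that oxidizes 5-methylcytosine in DNA. The rule named 10 genes. *Fcgr1*, *Fcgr3* and *Fcgr4* encode activating Fcγ receptors, *Fcgr2b* the inhibitory one, *Fcer1g* the signalling chain, *Fcrla*, *Fcrls*, *Fcrl1* and *Fcrl5* Fc receptor-like proteins, and *Fcgrt* the neonatal receptor. A row was found for 9 of the 10 among 21462 genes, all 9 had a mean of at least 10 normalized counts over the 4 libraries, and *Fcrl5* was not analysed here. The group was chosen from values of the same mutant and control libraries described below, so its levels and fold changes are given as a description, with no test.

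Fc receptors bind the constant part of antibodies and link antibody-coated targets to the cells of the innate immune system. Activating Fcγ receptors signal through the ITAM motif of the common γ-chain, which Src family kinases and SYK read, and drive phagocytosis and the oxidative burst, whereas the inhibitory receptor carries an ITIM that recruits the phosphatases SHIP1 and SHP-1. In the lung they are best known on macrophages, monocytes, neutrophils and dendritic cells, B cells carry the inhibitory receptor and several receptor-like proteins, and the neonatal receptor salvages IgG inside endothelial, epithelial and myeloid cells.

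The Tet3 mutant mice, on C57BL/6, carried floxed *Tet3* alleles, a tamoxifen-inducible Cre driven by the α-SMA promoter and a Cre-dependent tdTomato reporter. Over the study's experiments, control mice lacked the floxed allele but carried Cre, the reporter or both. Sorting tdTomato+ cells needs both, so this would hold for the controls sequenced here. Tamoxifen was given to young adults, so the sorted tdTomato+ cells are those in which this promoter had been active and their descendants. The labels give strain, tissue, cell type and genotype but no age, sex, batch or time after tamoxifen, and call the genotypes Mut and WT. Each genotype had 2 libraries of total RNA, which per the study come from separate animals, although the labels do not say so. Lung cells were depleted of CD45+ and Ter-119+ cells before the tdTomato+ sort.

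The normalized counts summed to between 6805272 and 7164573 per library. *Tet3* itself had 1847 and 1926 normalized counts in the controls and 1534 and 1444 in the mutants, a log2 fold change of -0.34 ± 0.10 (moderated standard error, n = 2 per group), and its transcript was still abundant. Control 2 stood apart: 1003 genes lay more than 2-fold from all other libraries, against 120 to 248 in the others, *Xist* was at 2 there and at 5214 to 6781 elsewhere, and the Y-linked *Ddx3y* was at 774 there and at 0 elsewhere. By these genes control 2 came from a male and the other libraries from females, so the genotypes were not matched for sex. The part of sex in any difference was not tested. Smooth muscle markers were well detected (*Acta2*, 686 and 900 in controls, 1032 and 929 in mutants), but so were endothelial *Cdh5* (1978 to 2407) and leukocyte *Ptprc*, which encodes CD45 (2136 and 1364 in controls, 2674 and 1885 in mutants). In such bulk libraries, fewer cells of a type and less RNA per cell cannot be told apart.

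Across 16659 genes tested with limma, none (0%) passed an adjusted p of 0.05, the smallest being 0.0902, while 1112 genes (6.68%) had an unadjusted p under 0.05, 638 higher and 474 lower in the mutant. In 19.6% of all genes both mutant values lay above both control values, and in 19.5% both lay below. Among the 9 Fc receptor genes, 7 were above in both mutants, 0 were below and 2 overlapped. Their median log2 fold change was 0.65, with a range from 0.20 to 1.13, against -0.01 over all genes, of which 48.96% were above 0. Without control 2, 7 of the 9 had both mutant values above the remaining control (32.4% of all genes), and without control 1 all 9 did (39.9%). Among these 7, *Fcgr1* (144 in mutant 1 against 143 in control 1) and *Fcgr4* (52 against 50) were above control 1 only narrowly in mutant 1. Mutant 2 held the highest value for 7 of the 9 genes and control 2 the lowest for 6.

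**Figure D1:**
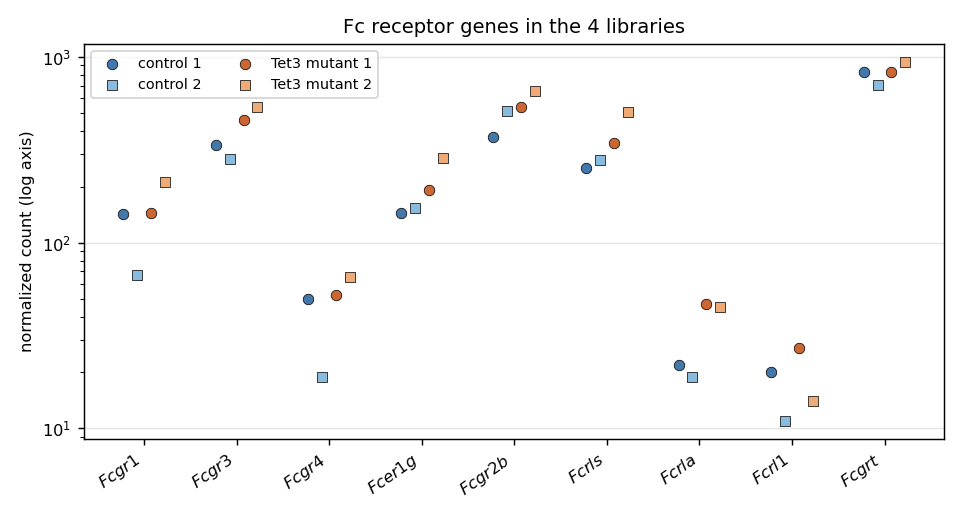
Normalized counts of the 9 Fc receptor genes (log axis), 1 point per library; circles are replicate 1 and squares replicate 2, blue control and orange Tet3 mutant. Both mutant points sit above both control points for 7 genes, whereas *Fcrl1* and *Fcgrt* overlap.

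The proximal promoters of 5 of the genes are shown for the short motif found in them. RefSeq promoter records of build GRCm38.p6 matched 10 of 10 genes, and the 120 bases before the first listed start were searched on both strands for GAGGAA, the core bound by the myeloid and B cell factor PU.1 and other ETS factors, a motif picked after these sequences had been seen. It occurred in 5 of the 10 windows (*Fcgr1*, *Fcgr3*, *Fcgr4*, *Fcrla* and *Fcrl1*). The share over all 32851 promoters was 11.6%, and because of how the motif was picked nothing is read from the difference. The 5 below are written 5′ to 3′ on the gene's strand, ending at the base before the start, with the match in capitals, here the reverse complement TTCCTC and, once in *Fcrl1*, GAGGAA itself. They come from chr3:96293970-96294089 (minus strand), chr1:171059404-171059523 (minus), chr1:171018806-171018925 (plus), chr1:170927584-170927703 (minus) and chr3:87376267-87376386 (plus).
Fcgr1: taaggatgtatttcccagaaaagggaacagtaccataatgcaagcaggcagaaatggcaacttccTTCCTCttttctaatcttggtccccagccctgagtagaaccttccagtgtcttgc
Fcgr3: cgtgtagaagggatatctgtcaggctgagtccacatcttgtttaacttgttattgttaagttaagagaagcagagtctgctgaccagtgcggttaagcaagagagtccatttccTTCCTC
Fcgr4: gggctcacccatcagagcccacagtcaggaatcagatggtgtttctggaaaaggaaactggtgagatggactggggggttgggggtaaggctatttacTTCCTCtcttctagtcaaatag
Fcrla: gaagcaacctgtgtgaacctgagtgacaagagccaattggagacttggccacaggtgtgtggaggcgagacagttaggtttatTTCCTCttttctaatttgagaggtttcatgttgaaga
Fcrl1: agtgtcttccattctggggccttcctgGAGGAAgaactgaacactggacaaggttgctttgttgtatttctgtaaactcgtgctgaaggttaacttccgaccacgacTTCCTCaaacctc

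The match lay 50 bases before the start in *Fcgr1*, 1 base in *Fcgr3*, 17 in *Fcgr4* and 32 in *Fcrla*, and the nearer of 2 matches in *Fcrl1* lay 8 bases before it. In *Fcgr3* it is the last 6 bases of the window, and the RefSeq start used lies inside the gene's listed interval, chr1:171051174-171064935. No match stood in the windows of *Fcgr2b*, *Fcer1g*, *Fcrls*, *Fcrl5* or *Fcgrt*, which says only that these letters are absent from the 120 bases searched. Of the 7 genes higher in both mutants, 4 held a match, as did 1 of the 2 that overlapped (*Fcrl1*).

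The activating receptors were higher in both mutants, but with very different spread. *Fcgr3*, the low-affinity receptor FcγRIII that triggers phagocytosis and mediator release, had 337 and 283 normalized counts in the controls and 460 and 536 in the mutants. Both mutant values were above both controls, at a log2 fold change of 0.68 ± 0.16, and it stayed between 0.56 and 0.81 with any 1 library left out. *Fcgr1*, the high-affinity receptor FcγRI, had 143 and 67 in the controls and 144 and 213 in the mutants. Control 1 and mutant 1 were level, and the log2 fold change was 0.83 ± 0.43, ranging from 0.29 when control 2 was left out to 1.37 when control 1 was. *Fcgr4*, the intermediate-affinity receptor FcγRIV for IgG2a and IgG2b, had 50 and 19 in the controls and 52 and 65 in the mutants. It too was level between control 1 and mutant 1 and low in control 2, at 0.89 ± 0.52 on the log2 scale, with 0.21 when control 2 was left out and 1.56 when control 1 was.

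*Fcer1g*, the common γ-chain that the activating receptors need for surface expression and signalling, had 144 and 154 in the controls and 193 and 286 in the mutants. The controls were close together and the mutants were not, and the log2 fold change of 0.65 ± 0.24 ran from 0.37 without mutant 2 to 0.94 without mutant 1. *Fcgr2b*, the inhibitory receptor, had 369 and 514 in the controls and 538 and 657 in the mutants. Here control 2 was the higher control and lay just under mutant 1, giving 0.45 ± 0.21 on the log2 scale and 0.21 once control 1 was left out.

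The ratio of activating to inhibitory receptor transcripts did not separate the genotypes, with control 1 highest and control 2 lowest in each. Normalized counts of *Fcgr3* divided by those of *Fcgr2b* were 0.913 and 0.551 in the controls and 0.855 and 0.816 in the mutants, both mutants between the controls. The ratio of *Fcgr1* to *Fcgr2b* was 0.388 and 0.130 against 0.268 and 0.324, again with the mutants between the controls, as they were for *Fcgr4* to *Fcgr2b* (0.136 and 0.0370 against 0.0967 and 0.0989). *Fcgr3* per *Fcer1g*, the receptor per chain, was 2.34 and 1.84 against 2.38 and 1.87, so the replicates differed more than the genotypes did.

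Of the receptor-like genes, *Fcrls*, an Fc receptor-like scavenger gene of tissue macrophages and microglia, had 252 and 277 in the controls and 344 and 503 in the mutants, a difference of 0.65 ± 0.22 on the log2 scale that was 0.38 without mutant 2 and 0.93 without mutant 1. Its profile over the 4 libraries was the nearest of all genes with a mean of at least 100 to that of *Fcer1g* (Euclidean distance of centred log2 values, 0.0309), with *H2-DMb2*, of the MHC class II peptide-loading machinery, next for both (0.0925 from *Fcer1g* and 0.0710 from *Fcrls*). *Fcrla*, an intracellular Fc receptor-like protein of B cells, had 22 and 19 in the controls and 47 and 45 in the mutants. The replicates were close within each genotype, and the log2 fold change of 1.13 ± 0.33 was the largest of the group and kept to 1.03 to 1.23 with 1 library left out. *Fcrl1*, a surface receptor-like protein of B cells, had 20 and 11 in the controls and 27 and 14 in the mutants. The groups overlapped, and the difference of 0.37 ± 0.55 on the log2 scale was -0.035 without control 2 and -0.082 without mutant 1.

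*Fcgrt*, the heavy chain of the neonatal receptor, was the most abundant of the group, with 834 and 705 in the controls and 830 and 940 in the mutants. Mutant 1 lay between the controls and the log2 fold change was 0.20 ± 0.14, between 0.083 and 0.325 with 1 library left out. *B2m*, which encodes its β2-microglobulin partner, had 630 and 597 against 682 and 623, a log2 fold change of 0.09 ± 0.12 (limma, adjusted p = 0.844), and *Fcgrt* per *B2m* overlapped between the groups (1.32 and 1.18 against 1.22 and 1.51).

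**Figure D2:**
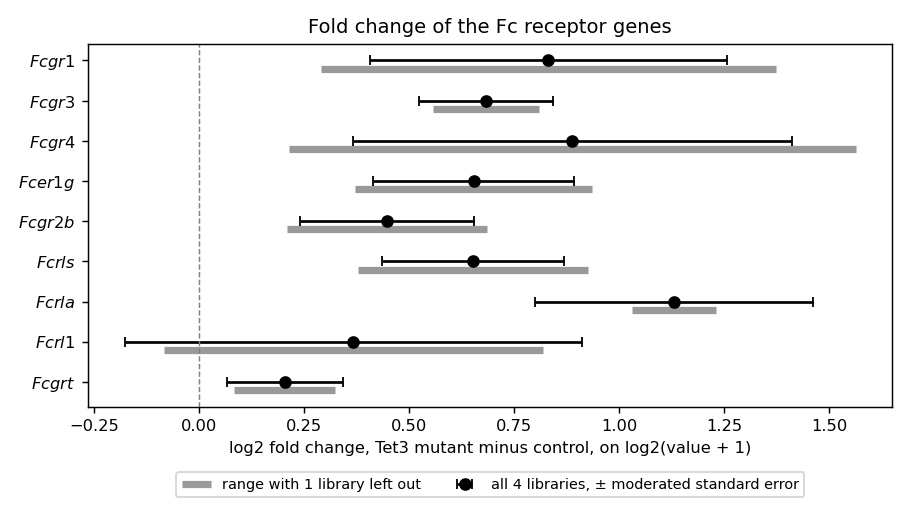
Log2 fold change of each Fc receptor gene, Tet3 mutant minus control, on log2(value + 1); points are the fit to all 4 libraries with their moderated standard error, and grey bars the range with 1 library left out. *Fcrla*, *Fcgrt* and *Fcgr3* have the narrowest bars, *Fcgr1* and *Fcgr4* run from 0.29 to 1.37 and from 0.21 to 1.56, and the bar of *Fcrl1* crosses 0.

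Levels of different genes were compared per kb of exon, using gene models of GENCODE M21. The order of the 4-library means was *Fcgrt* (394 normalized counts per kb), *Fcgr3* (233), *Fcer1g* (222), *Fcrls* (147), *Fcgr2b* (89.7), *Fcgr1* (54.8), *Fcgr4* (37.0), *Fcrla* (19.1) and *Fcrl1* (5.06). *Fcgrt* was above 98.41% of the tested genes and *Fcrl1* above 4.74%. *Fcgrt* lay clear of the rest in every library and *Fcrl1* lay below them, whereas each of the other neighbours in this order overlapped over the 4 libraries. *Fcgr3* (163 to 309) and *Fcer1g* (165 to 327) could not be ordered. For scale, *Acta2* of smooth muscle had 404 per kb on average and *Tyrobp*, the ITAM adaptor DAP12 of myeloid and NK cells, 329.

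**Figure D3:**
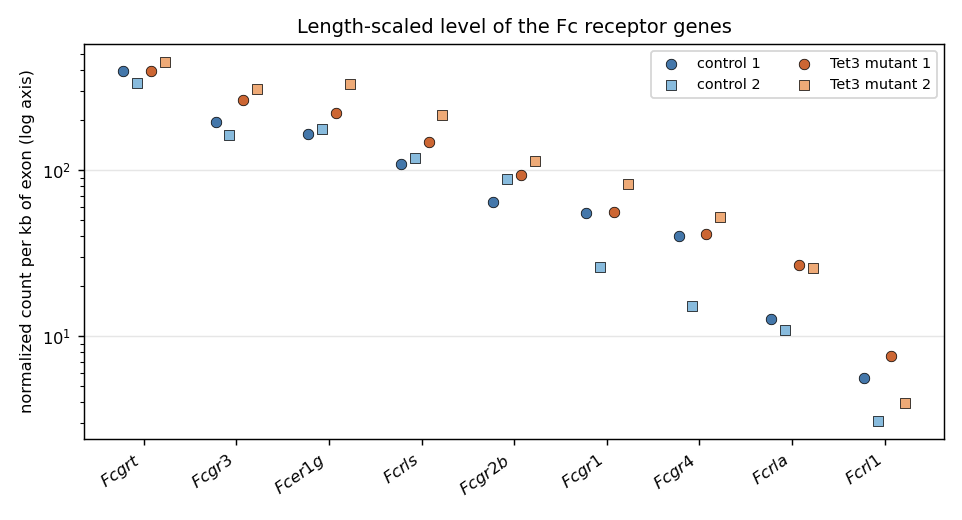
Normalized count per kb of exon (log axis) for each Fc receptor gene in each library, in order of the 4-library mean. Only *Fcgrt*, at 335 to 447, and *Fcrl1*, at 3.09 to 7.58, have ranges over the 4 libraries separate from their neighbours. Within a library, only *Fcgr3* and *Fcer1g* change places.

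Genes that carry Fc receptor signals inside the cell differed from list to list. Of 14 ITAM signalling genes, 12 (85.71%) were above in both mutants and 0 below, beside 19.6% above over all genes. Their median log2 fold change was 0.41, or 0.22 without control 2, and 0 passed the adjusted threshold. *Syk*, the kinase that docks on the phosphorylated chain, had 1131 and 788 in the controls and 1229 and 1251 in the mutants (log2 fold change 0.39 ± 0.19, limma adjusted p = 0.681). *Lyn*, a Src family kinase, had 908 and 697 against 982 and 953, and *Plcg2*, the phospholipase that raises calcium, 641 and 559 against 725 and 757. *Cblb*, a ubiquitin ligase that dampens the pathway, overlapped at 1582 and 1035 against 1346 and 1229.

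On the inhibitory side, 4 of 6 ITIM signalling genes (66.67%) were above in both mutants, beside 19.6% of all genes. Their median was 0.32, or 0.17 without mutant 2. *Inpp5d*, the gene of SHIP1, had 932 and 929 in the controls and 1041 and 1287 in the mutants, and *Ptpn6*, of SHP-1, 551 and 504 against 597 and 723. *Ptpn11*, the broadly expressed SHP-2, overlapped at 1257 and 1438 against 1393 and 1431. Of 10 phagocytic uptake and oxidase genes, 6 (60.00%) were above in both mutants, at a median of 0.39, or 0.18 without control 2. *Nckap1l*, a WAVE complex subunit of blood cells, had 907 and 774 against 1096 and 1173, while *Cybb*, the catalytic oxidase subunit, overlapped at 1564 and 797 against 1424 and 1723. The deposited table assigns 83 genes, beside *Fcgr1* and *Fcgr2b*, to the KEGG pathway of Fcγ receptor phagocytosis. Of these, 24 (28.92%) were above in both mutants and 18 below, at a median of 0.01. Over all genes tested, 19.6% were above and 19.5% below. *Pik3r1*, a regulatory subunit of phosphoinositide 3-kinase, had 2676 and 2213 against 2448 and 2261.

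Other adaptors and receptors varied with control 2. *Tyrobp* had 197 and 170 in the controls and 229 and 282 in the mutants, and *Fcer1g* per *Tyrobp* overlapped at 0.731 and 0.906 against 0.843 and 1.01. The 7 other ITAM adaptors had a median log2 fold change of 0.78 with all libraries, 0.20 without control 2 and 1.53 without control 1. For the 7 of 8 receptors that pair with the Fcer1g chain and passed the filter these were 0.84, 0.21 and 1.60. Among these, *Clec4n*, of Dectin-2, had 83 and 34 against 80 and 115, while *Clec4d*, of the lectin MCL, had 30 and 18 against 71 and 50 and did not overlap. All of these adjusted p-values were above the threshold.

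Of 9 other Fc receptor genes found in the table, 5 passed the filter, with 0 above in both mutants and 1 below. Over all genes tested these shares were 19.6% and 19.5%. The log2 fold change was above 0 for 4 of the 5, at a median of 0.33 that ran from -0.28 without control 2 to 1.03 without control 1, and the difference from the group was not tested. *Trim21*, a cytosolic antibody receptor, had 292 and 217 in the controls and 301 and 292 in the mutants, *Pigr*, which carries IgA across epithelium, 332 and 58 against 159 and 193, *Fcer2a*, the low-affinity IgE receptor CD23, 41 and 16 against 49 and 23, and *Fcmr*, the IgM receptor, 39 and 6 against 45 and 25. All 4 overlapped between the groups, with control 2 lowest. *Fcgbp*, an IgG Fc-binding protein of mucus, was lower in both mutants, with 48 and 55 in the controls and 10 and 30 in the mutants, at a log2 fold change of -1.50 ± 0.58 (limma adjusted p = 0.681). *Fcer1a*, the IgE-binding chain of mast cells and basophils, was at 1 to 4 in every library, near the floor of 3 counts used for detection.

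Markers of the cells the sort could hold differed by cell type. Of 12 macrophage markers, 8 (66.67%) were above in both mutants, beside 19.6% of all genes. The log2 fold change of 11 of the 12 markers was above 0, and the median was 0.40, or 0.26 without mutant 2. Their summed normalized counts were 8447 and 7668 in the controls and 9119 and 10327 in the mutants, not overlapping, and all 12 passed the filter on low values. *Csf1r* had 1484 and 1478 against 1707 and 1833 and *Mrc1* 2038 and 1739 against 2310 and 2537, while *Lyz2* was at 1120 and 1361 against 1197 and 1033. The 7 pan-leukocyte markers summed to 6523 and 5073 against 7313 and 7183, the 6 dendritic cell markers to 1574 and 1690 against 1993 and 2407, and the 5 neutrophil markers to 960 and 723 against 1689 and 1163. The sums of the 8 smooth muscle markers, which the sort was meant to enrich, also did not overlap, at 4567 and 5848 against 6894 and 6519. Nor did those of the 6 endothelial markers, at 12376 and 12004 against 13340 and 12920. Gene by gene, 5 of 7 pan-leukocyte, 3 of 6 dendritic cell and 4 of 5 neutrophil markers were above in both mutants. So were 5 of 8 smooth muscle markers but only 1 of 6 endothelial markers (16.67%), beside 19.6% of all genes. The 8 B cell markers (1569 and 632 against 1397 and 1102) and the T and NK cell markers (394 and 114 against 385 and 445) overlapped, with control 2 lowest in both. So did the 6 mast cell and basophil markers (480 and 931 against 361 and 522), a sum held mostly by *Hdc* (439 and 896 against 330 and 499). The 5 plasma cell markers (2373 and 3094 against 2279 and 2591) overlapped too. Within this sum *Jchain* was above in both mutants (492 and 421 against 693 and 736) and *Sdc1* below (850 and 1597 against 465 and 799). The part of any of these cell types in the Fc receptor values was not tested.

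**Figure D4:**
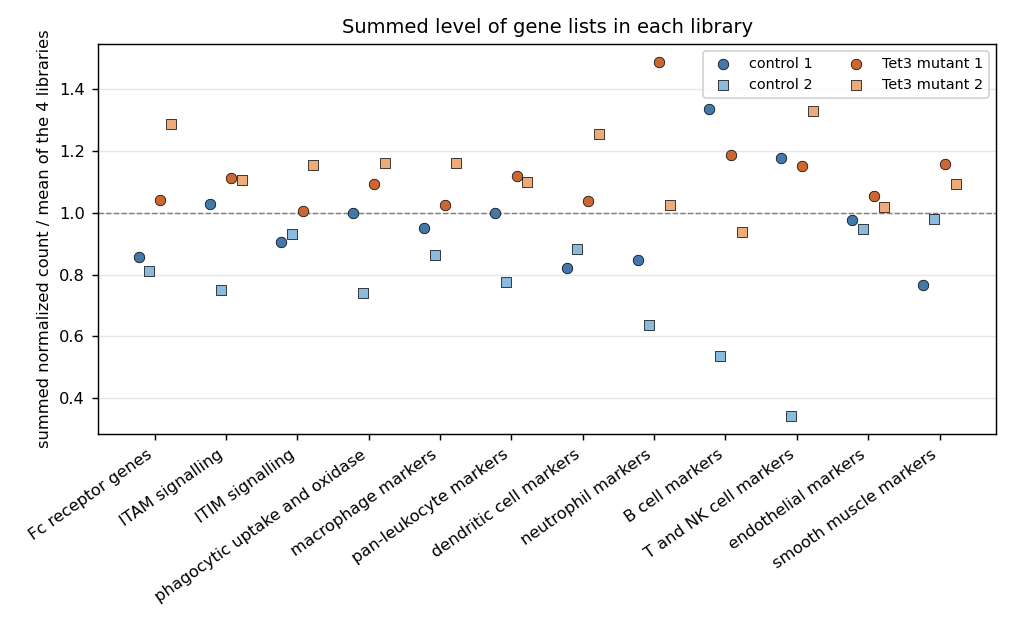
Summed normalized counts of 12 gene lists in each library, divided by the mean of the 4 libraries (dashed line at 1). Of the lists plotted, those of B cells and of T and NK cells overlap between the genotypes, with control 2 lowest, and the others have both mutant points above both control points.

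Set against the macrophage markers of the same library, 4 of the genes were above in both mutants. Per 1000 summed macrophage marker counts, *Fcgr3* was at 39.9 and 36.9 in the controls and 50.4 and 51.9 in the mutants, and *Fcrla* at 2.60 and 2.48 against 5.15 and 4.36. *Fcer1g* (17.1 and 20.1 against 21.2 and 27.7) and *Fcrls* (29.8 and 36.1 against 37.7 and 48.7) did not overlap either. These 4 of 9 stand beside 5.82% of all genes on the same scale. *Fcgrt* was lower, at 98.7 and 91.9 against 91.0 in both mutants, as were 51.4% of all genes. *Fcgr1*, *Fcgr2b*, *Fcgr4* and *Fcrl1* overlapped. Per 1000 pan-leukocyte marker counts only *Fcgr3* (51.7 and 55.8 against 62.9 and 74.6) and *Fcrla* (3.37 and 3.75 against 6.43 and 6.26) of the 9 were above in both mutants, and 0 were below. Over all genes on this scale, 5.21% were above and 54.1% below. Per 1000 B cell marker counts 2 of the 9 were above in both mutants, beside 2.72% of all genes. *Fcrla* was at 14.0 and 30.1 against 33.6 and 40.8, with controls far apart, and *Fcgr4* at 31.9 and 30.1 against 37.2 and 59.0.

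In the genome, 5 of the genes (*Fcrla*, *Fcgr2b*, *Fcgr4*, *Fcgr3* and *Fcer1g*) lie within 316.8 kb, at chr1:170917576-171234365 (GRCm38), and *Fcrls* and *Fcrl1* within 152.2 kb, at chr3:87250758-87402934. *Fcgr1* lies elsewhere on that chromosome, at chr3:96282909-96293969, and *Fcgrt* at chr7:45092990-45103851. Of the 30 other tested genes within 500 kb of the chromosome 1 genes, 13 (43.33%) were above in both mutants and 3 below. Over all genes tested, 19.6% were above and 19.5% below. The median log2 fold change of these neighbours was 0.12 (0.028 without control 1 and 0.218 without control 2) against the 0.65 of the Fc receptor genes. Between *Fcgr3* and *Fcer1g*, *Sdhc*, a subunit of succinate dehydrogenase, had 244 and 312 against 276 and 319 and overlapped. *Slamf7* and *Cd48*, immune receptors of the SLAM family and chosen after their values were seen, had 183 and 328 against 543 and 661 and 151 and 116 against 170 and 223. The 102 genes near *Fcgr1*, *Fcrls*, *Fcrl1* and *Fcgrt* had 23 (22.55%) above, 25 below and a median of 0.00.

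**Figure D5:**
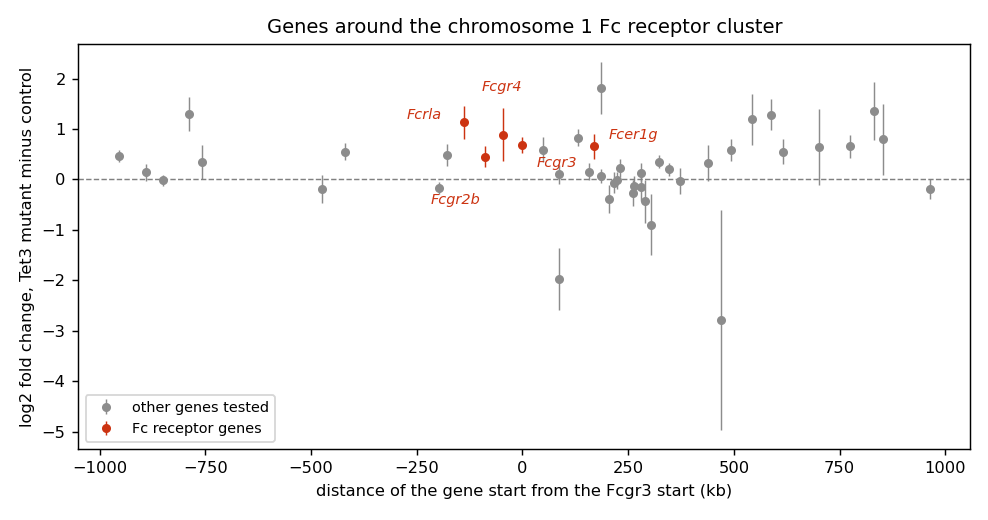
Log2 fold change with moderated standard error of each tested gene within 1000 kb of the *Fcgr3* start on chromosome 1, against the distance between gene starts in kb; Fc receptor genes are red and all others grey. The 5 Fc receptor genes lie between 0.45 and 1.13, while the grey points spread on both sides of 0.

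Shared sequence could touch the values of one pair. Of the 75-base windows in *Fcgr3* transcripts, 94 of 1733 (5.42%) also occur in *Fcgr2b*, and 313 of 5768 (5.43%) of *Fcgr2b* in *Fcgr3* or unrelated genes, and reads that lie wholly in such windows have several places and were left out by the authors' counting. The other genes of the group shared no window. *Fcgr2b* also overlaps the antisense gene *Gm38204* over 155 exon bases, and whether strand was used in counting is not given in the sources used here.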

How the data were processed

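Total RNA of sorted lung smooth muscle cells was sequenced after ribosomal depletion, with a stranded kit. Per the submitters' processing notes and the study's methods, the authors trimmed reads with Trimmomatic 0.36, aligned them to mm10 (GRCm38) with STAR 2.6.0c, counted them per gene with featureCounts of Subread 1.6.0, leaving out reads on several genes or places, and normalized the counts with DESeq2. The deposited values are such normalized counts rounded to whole numbers, a score rather than raw counts.

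The 16659 of 21462 genes that averaged 10 or more normalized counts entered 1 linear model per gene in limma (version 3.58.1, under R 4.3.3, empirical Bayes with a mean-variance trend) on log2(value + 1), 2 mutant against 2 control libraries, with Benjamini-Hochberg adjustment over all genes and a threshold of 0.05. Fold changes on this scale understate low genes. The fit was tested on simulated data. An exact two-sided permutation test of 2 against 2 cannot go below p = 0.333 and was not used. A group did not overlap where both mutant values lay on 1 side of both controls. Because read depth is hidden by the scaling, no counting interval is given. Coordinates are those of the deposited table (GRCm38), and exon lengths come from GENCODE M21.

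The Fc receptor genes and all lists were chosen with earlier results of these data known. Every Fc receptor gene is named, as are every other Fc receptor gene past the filter and *B2m*, the 2 to 4 genes with the highest mean of each other list (a selection of these is printed), and the 3 nearest profiles of each Fc receptor gene averaging 100 or more. Exceptions are said in place or are list members described for their role.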

Additional observations from a re-analysis of the deposited data

How the results depend on the processing

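Alternatives were pseudocounts of 0.5 and 8, mean minimums of 1 and 50 (which leaves 6 of the 9 Fc receptor genes), libraries scaled to equal totals or upper quartiles, a fit without the mean-variance trend, a replicate block and leaving out each library. Added after the data were seen was division by summed macrophage or pan-leukocyte markers, which moves the median of all genes to -0.28 and -0.34. The fit without the trend called 1 gene (*Hal*), as did both marker scalings. Those scalings left 4 and 2 of the Fc receptor genes above in both mutants, with medians of 0.39 and 0.32, and *Fcgrt* at -0.066 and -0.129. With control 2 left out, 7 Fc receptor genes had both mutant values above the remaining control, beside 32.4% of all genes. With control 1 left out all 9 did, beside 39.9%. Both shares exceed the 19.6% over 4 libraries, as the rule is looser with 1 control. With any 1 library left out, the median of the Fc receptor genes was 0.55 to 0.93. Then *Fcrl1* ran from -0.082 (without mutant 1; -0.035 without control 2) to 0.819, and the medians of other Fc receptors from -0.278 to 1.03, of B cell markers from -0.527 to 1.69 and of endothelial markers from -0.003 to 0.212, each lowest without control 2 and highest without control 1. The plasma cell median ran from -0.485 to 0.078 (without mutant 1) and was 0.040 at either other minimum. Per macrophage and pan-leukocyte markers, endothelial medians were -0.17 and -0.24, KEGG medians -0.25 and -0.32 and, for the latter, the ITIM median -0.017. The cause was not tested. The replicate block called 0 genes, with 1637 at an unadjusted p under 0.05 (700 higher, 937 lower), and left every Fc receptor value as it was. Same-numbered libraries correlated at 0.134 over 2 pairs, which does not show that the numbers pair the samples. Count models were not run, as whole reads could not be recovered. With 2 libraries per group the spread of each gene is poorly known.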

Other observations

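The closest profiles to *Fcgr1* over the 4 libraries, among genes with a mean of at least 100, were *Cd226*, an activating receptor of T, NK and myeloid cells (158 and 73 normalized counts in the controls, 155 and 226 in the mutants), *Cd4* (199 and 88 against 184 and 264) and *Rgs18*, a regulator of G-protein signalling in blood cells (100 and 50 against 110 and 170). Those nearest to *Fcgr3* were *Fgl2*, a prothrombinase gene of macrophages (571 and 500 against 820 and 912), *Fut10* and *Lpcat2*. Those nearest to *Fcgr2b* were *Lgr6*, *Cfap298* and *Tnip3*, and the third after those named above was *Slc39a11* for *Fcer1g* and *Cd209f* for *Fcrls*. Those nearest to *Fcgrt* were *Smn1*, *Tor1a* and *Mrto4*, and *Smn1*, whose product assembles spliceosomal particles in all cells, had 228 and 189 against 227 and 254. These are likenesses over 4 points that share 1 scaling.

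The 2 mast cell and basophil markers that passed the filter had a median of -0.48 on the log2 fold change scale. *Hdc*, the histamine-forming enzyme, had 439 and 896 in the controls and 330 and 499 in the mutants (limma adjusted p = 0.702).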
